A study of Mus musculus with 27 samples.

Results

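Vnn1 and Vnn3, the genes of the vanin pantetheinases, were followed in right lung across 9 inbred mouse strains. Both were found by symbol among the 20239 probe sets that carry a single gene symbol, as 2 of 20239, each with 1 probe set (Entrez 22361 for Vnn1 and 26464 for Vnn3). They were chosen by their measured log2 signals in these strains, so their strain levels are given as a description, without a test. The study put lung RNA of 11-week-old female mice on 27 Mouse Gene ST arrays, with 3 mice from each of 9 strains. No treatment or engineered allele is labelled, and the strains differ in their spontaneous pulmonary adenomas. A/J, C57BL/6J and DBA/2J are labelled increased in adenoma severity and frequency. C57L/J, C3H/HeJ, 129S1/SvlmJ and BALB/cJ are labelled increased in severity and decreased in frequency, and MRL/MpJ and KK/HlJ decreased in both.

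Vanins are ectoenzymes that split pantetheine, a breakdown product of coenzyme A, into pantothenic acid (vitamin B5) and cysteamine. Pantothenic acid can re-enter coenzyme A synthesis, while cysteamine affects thiol balance and glutathione synthesis. Vnn1 protein is tethered to the surface of epithelial cells by a lipid anchor and its gene is a known target of the fatty acid receptor PPAR-alpha in liver; Vnn3 is its paralogue and has been described in myeloid cells.

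The RefSeq gene table places both genes side by side on chromosome 10 of GRCm38.p6. Vnn3 lies at chr10:23851462-23869843 and Vnn1 at chr10:23894688-23905344, so that 24845 bases separate the end of Vnn3 from the start of Vnn1. The RefSeq promoter table held an entry for Vnn3 but not for Vnn1, so only the Vnn3 promoter is shown. Its 250 bases before the gene start (chr10:23851212-23851461, plus strand) follow, with the matches of the searched motifs in capitals.

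Vnn3 promoter: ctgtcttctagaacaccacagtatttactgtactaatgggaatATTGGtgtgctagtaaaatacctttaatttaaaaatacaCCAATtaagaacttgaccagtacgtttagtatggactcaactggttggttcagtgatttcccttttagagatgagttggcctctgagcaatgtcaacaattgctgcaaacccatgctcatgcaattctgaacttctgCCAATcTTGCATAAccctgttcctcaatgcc

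Both strands were searched for the CCAAT box (its name is its sequence), the C/EBP core TTGCNNAA, the TATA box TATAAA, the AP-1 site TGANTCA and the nuclear receptor half-site AGGTCA. The DR1 element, which PPAR-alpha binds with its partner, was also searched; it is a direct repeat of the half-site with any 1 base between, so each match of it also holds the half-site. The CCAAT box matched at 3 places, from -207 to -203 on the minus strand and from -168 to -164 and -31 to -27 on the plus strand, counted from the gene start. The C/EBP core matched at 1 place, from -25 to -18. Of 32851 promoters of the same length in the table, 33.8% held the CCAAT box and 9.56% the C/EBP core. The other 4 motifs did not match these 250 bases. In the table, 12.4% of promoters held the TATA box, 14.0% the half-site, 6.75% the AP-1 site and 0.0335% the DR1 element. The sequence is that of the C57BL/6J reference, and those of the other strains were not analysed here.

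Signals are log2 values, so a difference of 1 is a doubling. Array medians lay between 6.24 and 6.37. Strain means of the alveolar type II cell genes ranged over 13.07 to 13.31 (Sftpc), 11.81 to 12.40 (Sftpb) and 12.73 to 13.16 (Sftpa1), and those of the club cell gene Scgb1a1 over 12.76 to 12.95. H2-Ea, an MHC class II gene that is silent in strains of the b haplotype at H2, read 4.79 to 4.90 in 129S1/SvlmJ, C57BL/6J and KK/HlJ and 10.92 to 11.42 elsewhere. The high group includes the arrays labelled C57L/J, at 11.17, although C57L/J is recorded as a b haplotype strain; those arrays are therefore named by their label throughout. In KK/HlJ replicate 3 the 8 liver genes of the marker list averaged 7.67, against 4.98 and 4.60 in replicates 1 and 2, and their median lay 2.80 above the average of the strains. In C3H/HeJ replicate 2 the median of 10 skeletal muscle genes lay 3.88 above that average, and that of 8 adipocyte genes 2.10 above.

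Vnn1 was highest in DBA/2J and lowest in A/J, and 3 strains stood above the other 6. In DBA/2J its signal was 8.31, 7.97 and 8.36 in the 3 mice (mean 8.21 ± 0.21 SD, n = 3). It was 7.71, 7.55 and 7.57 in C57BL/6J (7.61 ± 0.09). It was 7.43, 7.54 and 7.58 in 129S1/SvlmJ (7.52 ± 0.08). These 9 mice lay above all 18 others; DBA/2J lay above the other 2 strains array by array, by 0.26 at the nearest mice, whereas C57BL/6J and 129S1/SvlmJ overlapped. In the arrays labelled C57L/J Vnn1 was 6.73, 6.75 and 6.68 (6.72 ± 0.04). In BALB/cJ it was 6.56, 6.86 and 6.60 (6.67 ± 0.16). In KK/HlJ it was 6.73, 6.28 and 6.82 (6.61 ± 0.29), the widest spread of the 9 strains. These 3 strains overlapped and were not separated by more than their spread; below them the KK/HlJ mice also overlapped those of C3H/HeJ. C3H/HeJ mice read 6.51, 6.16 and 6.04 (6.24 ± 0.24). MRL/MpJ mice read 6.06, 6.21 and 6.06 (6.11 ± 0.09). A/J mice read 5.87, 5.92 and 5.74 (5.84 ± 0.09). C3H/HeJ and MRL/MpJ overlapped, while every A/J mouse lay below every mouse of the other strains, and 0.14 separated the nearest mice of A/J and MRL/MpJ.

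From A/J to DBA/2J Vnn1 spanned 2.37 on the log2 scale, a 5.15-fold difference between strain means. The step between the arrays labelled C57L/J and 129S1/SvlmJ was the widest between neighbours in the order, at 0.80.

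Vnn3 followed the same order at its ends, with a wider range. In DBA/2J it was 7.99, 7.93 and 7.96 (7.96 ± 0.03). In 129S1/SvlmJ it was 6.71, 6.80 and 6.83 (6.78 ± 0.06). In C57BL/6J it was 6.66, 6.85 and 6.77 (6.76 ± 0.10). DBA/2J stood apart from both, with 1.09 between its lowest mouse and the highest of 129S1/SvlmJ, and 129S1/SvlmJ and C57BL/6J were within 0.02 of each other. The arrays labelled C57L/J read 5.54, 5.46 and 5.41 (5.47 ± 0.07). KK/HlJ mice read 5.25, 5.63 and 5.30 (5.39 ± 0.21). BALB/cJ mice read 5.27, 5.38 and 5.31 (5.32 ± 0.06). KK/HlJ overlapped both of the others, while the lowest array labelled C57L/J (5.41) lay just above the highest of BALB/cJ (5.38). The highest mouse of these 3 strains, at 5.63, lay below the lowest C57BL/6J mouse, at 6.66. In C3H/HeJ the mice ranged more widely, at 5.20, 5.56 and 4.60 (5.12 ± 0.48), overlapping both neighbours. MRL/MpJ was at 5.20, 4.98 and 4.94 (5.04 ± 0.14). A/J was at 4.89, 4.67 and 4.81 (4.79 ± 0.11). A/J had the lowest strain mean, but the lowest single mouse was C3H/HeJ replicate 3.

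The difference between DBA/2J and A/J was 3.17 for Vnn3, or 9.01-fold. This could be a lower bound if the low strains lay at background, which was not tested. Sry, a Y-linked gene without a template in females, gave strain means of 4.78 to 5.25, near the low strains. The other 3 Y-linked genes read lower, at 2.50 to 3.56. Strain accounted for 96.8% of the sum of squares of Vnn1 over the 27 arrays and 97.6% of that of Vnn3, against a median of 47.5% over all named genes. The within-strain SD was 0.17 for Vnn1 and 0.19 for Vnn3, against a median of 0.13 over all genes. Of the 20239 genes, 37 had a wider range of strain means than Vnn3 and 99 a wider one than Vnn1, where the median gene spanned 0.34. In whole lung, fewer cells of a type and less RNA per cell cannot be told apart, and neither can transcript amount and the match of a strain's sequence to the probes.

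**Figure D1:**
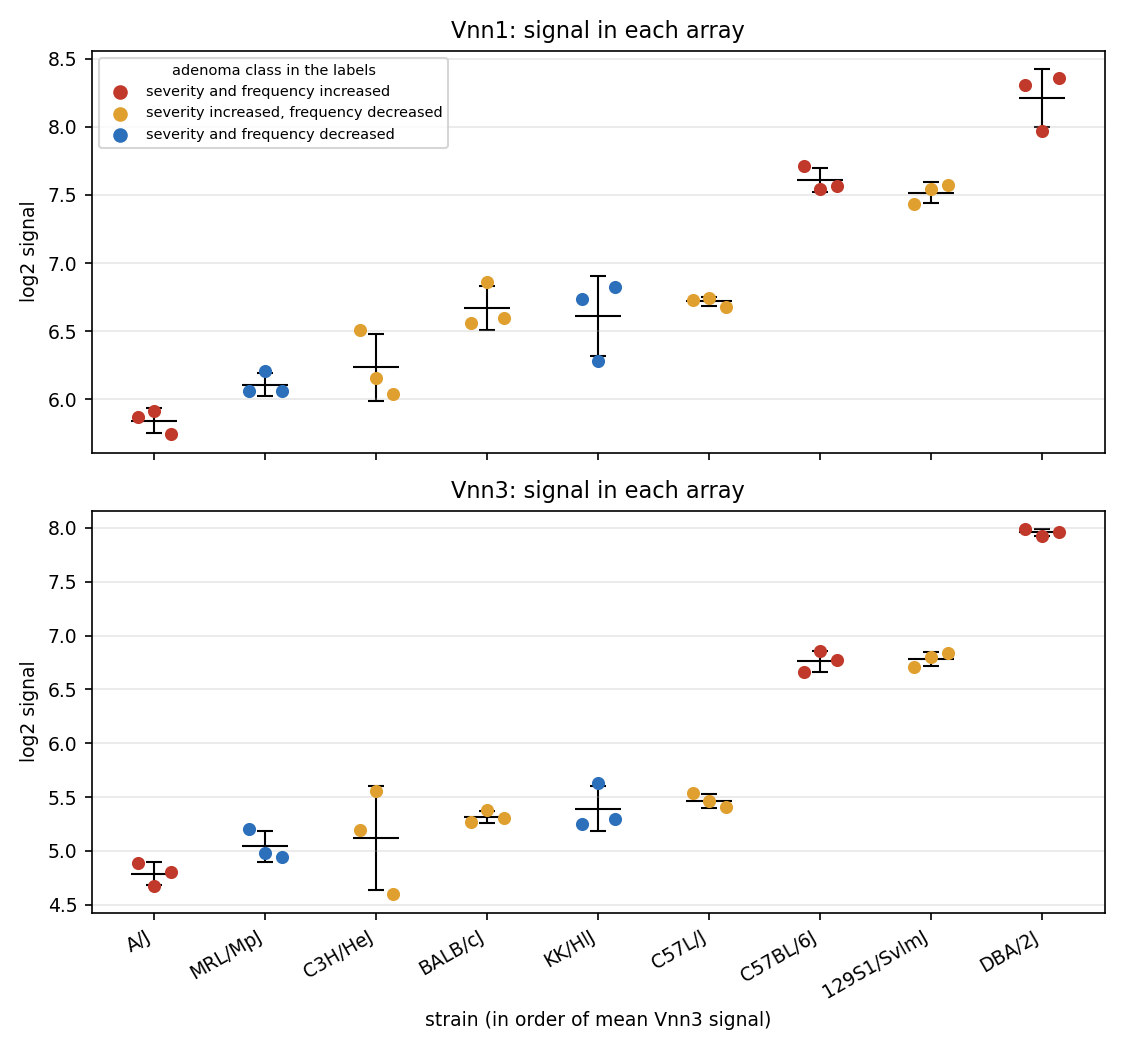
Log2 signal of Vnn1 (top) and Vnn3 (bottom) in each of the 27 arrays, by strain in order of mean Vnn3 signal. Points are mice coloured by the adenoma class in the labels, horizontal bars the strain means and whiskers the SD (n = 3). DBA/2J is highest for both genes (8.21 and 7.96) and A/J lowest in mean (5.84 and 4.79), and both carry the class of increased severity and frequency.

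The 2 arrays with liver or muscle signal were left out to see what they carry, a choice made after seeing the data. Without KK/HlJ replicate 3 and C3H/HeJ replicate 2, the order of the strains in Vnn1 was the same, with KK/HlJ at 6.51 and C3H/HeJ at 6.28. In Vnn3, C3H/HeJ moved to 4.90, below MRL/MpJ at 5.04. Liver itself expresses Vnn1, and KK/HlJ replicate 3 had the highest Vnn1 signal of its strain, 6.82, though replicate 1, without liver signal, read 6.73.

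Marker lists of other cells were set beside the strain order. The liver list was lowest in DBA/2J, at a median of -0.56 from the average of the strains with 0 of 8 genes above it, and was at 0.28 in A/J with 8 of 8 above. It was low in C57BL/6J (-0.25) and 129S1/SvlmJ (-0.21) too, each with 1 of 8 genes above. The highest strain was KK/HlJ (0.64), whose replicate 3 with liver signal also raises the average of the strains. MRL/MpJ was at 0.21, the arrays labelled C57L/J at 0.10, C3H/HeJ at -0.05 and BALB/cJ at -0.06. The A/J mice differed in the liver list, at 0.85, -0.40 and 0.14 in replicates 1, 2 and 3. Neutrophil genes, a myeloid list of 12, were at 0.00 in DBA/2J, 0.16 in C57BL/6J, -0.36 in 129S1/SvlmJ and -0.42 in A/J, and were highest in MRL/MpJ at 0.41. Alveolar macrophage genes were at -0.17 in DBA/2J, with 1 of 10 above the average, and at 0.30 in A/J, with 9 of 10 above. They did not follow the vanin order in between, being highest in KK/HlJ (0.42), lowest in BALB/cJ (-0.51) and at -0.18 in MRL/MpJ. Among epithelial lists, the values in DBA/2J and A/J were 0.13 and 0.15 for club cells, 0.16 and 0.11 for ciliated cells, and -0.12 and 0.06 for alveolar type II cells. Ciliated cell genes were at 0.23 in C57BL/6J and -0.40 in 129S1/SvlmJ. The part of these cells in the strain levels of Vnn1 and Vnn3 was not tested.

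Across the 9 strain means the pair ran closely together, with Pearson r = 0.98 and Spearman rho = 0.97. As the strains fall into a low and a high group, the relation was also taken within the 6 lower strains, where r was 0.98 and rho 0.94. Leaving out any 1 strain gave r between 0.97 and 0.99 over the other 8. Both genes come from the same arrays and were chosen together, so these values are a description.

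Mice of the same strain did not show that relation. The deviations of the 27 arrays from their strain means had Pearson r = -0.04 (permutation p = 0.929, two-sided, shuffled within strains) and Spearman rho = -0.11 (permutation p = 0.693). This was the only relation tested in its family, so no further adjustment applies. The mouse with the most Vnn1 was also the one with the most Vnn3 in 2 of 9 strains. Without the 2 arrays farthest from the others in Vnn1, C3H/HeJ replicate 1 and KK/HlJ replicate 2, r was 0.18 (permutation p = 0.383). Without C3H/HeJ replicate 3, which was low in both genes, r was -0.52 (permutation p = 0.135), and without KK/HlJ replicate 2 it was 0.22. With a within-strain SD under 0.2 the deviations are small, and an existing relation may not be detectable at this spread.

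**Figure D2:**
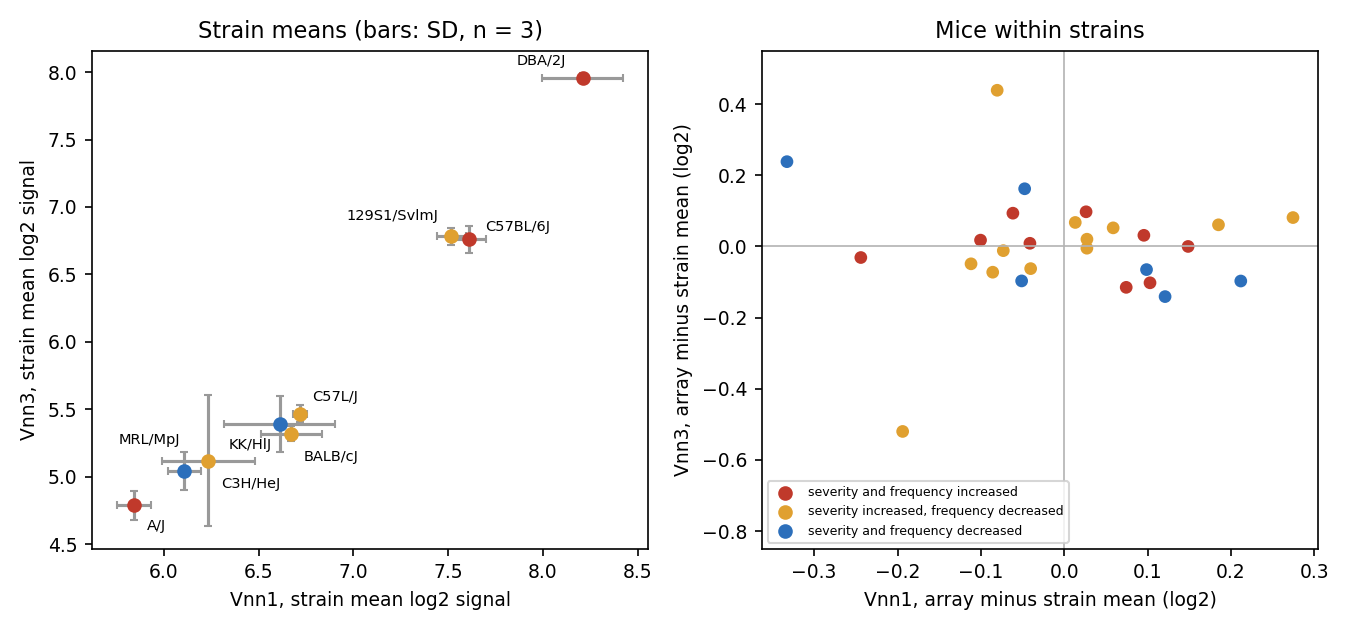
Vnn3 against Vnn1 as strain means with SD (left, n = 3 per strain) and as deviations of each array from its strain mean (right, 27 arrays), both on the log2 scale and coloured by adenoma class. The 9 strain means lie near a line (r = 0.98), whereas the deviations of the mice do not (r = -0.04).

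The study asked whether lung expression at this age differs between strains of increased and decreased adenoma frequency or severity. The strain, not the mouse, was the unit, and limma was fitted to 9 strain means over all 20239 genes. Since members were picked for their variation among strains, the class differences rest on the same strain means. In strains of increased severity Vnn1 averaged 6.97 ± 0.84 (SD, n = 7 strains), and in those of decreased severity 6.36 ± 0.36 (n = 2). The difference was 0.61 (SE 0.53, 95% interval -0.57 to 1.79, limma adjusted p = 0.835). For Vnn3 the means were 6.03 ± 1.16 and 5.22 ± 0.25, a difference of 0.81 (SE 0.72, interval -0.80 to 2.41, limma adjusted p = 0.839). The classes overlapped for both genes. A/J lay below both strains of decreased severity, and C3H/HeJ, also of increased severity, lay between them (6.24 for Vnn1 and 5.12 for Vnn3).

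By adenoma frequency, Vnn1 averaged 7.22 ± 1.23 in the 3 increased strains and 6.64 ± 0.49 in the 6 decreased strains. The difference was 0.58 (SE 0.46, 95% interval -0.45 to 1.61, limma adjusted p = 0.739). Vnn3 averaged 6.50 ± 1.60 and 5.52 ± 0.64, a difference of 0.98 (SE 0.60, interval -0.36 to 2.32, limma adjusted p = 0.695). The increased class holds DBA/2J and C57BL/6J, among the highest strains, together with A/J, the lowest, and the decreased class holds 129S1/SvlmJ at the level of C57BL/6J. Between strains increased in both measures (3) and decreased in both (2) the differences were 0.86 for Vnn1 (interval -0.52 to 2.24, limma adjusted p = 0.672) and 1.28 for Vnn3 (interval -0.52 to 3.09, limma adjusted p = 0.636).

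Neither vanin passed in any of the 3 class comparisons, where 0.00988% (severity), 0% (frequency) and 0.00494% (both) of all genes passed, or 2, 0 and 1 of 20239. At an unadjusted p under 0.05 there were 1425, 1558 and 1745 genes. Each interval reaches from below 0 to above 1 on the log2 scale, so the classes are not shown to be alike either. The frequency differences turned on single strains. Without A/J they were 1.26 for Vnn1 and 1.84 for Vnn3 (limma adjusted p = 0.530 each), and without DBA/2J 0.08 and 0.25. Between strains increased in both and decreased in both they were 1.55 and 2.14 without A/J, and 0.37 and 0.56 without DBA/2J. Without C57BL/6J the frequency difference of Vnn1 was 0.38. The severity difference of Vnn1 was 0.41 without DBA/2J and 0.36 without MRL/MpJ, and that of Vnn3 was 0.49 without DBA/2J. When MRL/MpJ was left out, KK/HlJ was the only remaining strain of decreased severity. Without the arrays labelled C57L/J the severity differences were 0.65 and 0.90, and the frequency differences 0.59 and 0.97.

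The genes around and downstream of the vanins were then taken as lists, and each gene was tested for a difference among the 9 strains with a moderated F test (limma, 27 arrays). Of all 20239 genes, 5840 passed at an adjusted p under 0.05, or 28.9%, and each list is read against that share. The share depends on signal: with probe sets of mean signal under 6 left out, 5039 of 11149 genes passed. The lists then gave, in the order below, 2 of 14, 2 of 3, 3 of 5, 10 of 10, 7 of 14 and 2 of 4.

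Genes that make, move and degrade coenzyme A, the pathway fed by the vanin product pantothenic acid, held 1 gene of 16 that passed (6.25%), and the median range of strain means was 0.31, against 0.34 for all genes. The gene that passed was Nudt19, a peroxisomal coenzyme A hydrolase gene, at 6.66 ± 0.09 in C3H/HeJ and 6.04 ± 0.10 in DBA/2J (n = 3 each, limma adjusted p = 6.10e-06). Pank2, a pantothenate kinase gene for the first step of the synthesis, ranged from 9.18 ± 0.10 in DBA/2J to 9.44 ± 0.03 in A/J, just short of the threshold (limma adjusted p = 0.0501). Nudt7, another coenzyme A hydrolase gene, spanned 0.65 and Slc25a42, a mitochondrial coenzyme A carrier gene, 0.43 (limma adjusted p = 0.0982 and 0.104). The top of the Nudt7 range was KK/HlJ, at 7.79 ± 0.51, the strain whose replicate 3 had liver signal. The count of this list moved to 2 without the arrays labelled C57L/J, and to 3 when arrays were centred on their median or when KK/HlJ replicate 3, C57L/J replicate 1 or BALB/cJ replicate 3 was left out.

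Of the 5 measured relatives of the vanins in the carbon-nitrogen hydrolase family, 2 passed (40%). Nit1 was at 8.11 ± 0.05 in the arrays labelled C57L/J and 7.69 ± 0.09 in MRL/MpJ (limma adjusted p = 0.00118). Nit2, an omega-amidase gene, was at 7.13 ± 0.09 in BALB/cJ and 6.66 ± 0.12 in DBA/2J (limma adjusted p = 0.0289). Btd, the biotinidase gene and the closest relative listed, spanned 0.26 and Upb1 0.47 (limma adjusted p = 0.445 and 0.711). Upb1 was highest in KK/HlJ, at 5.26 ± 0.78, the strain that includes the array with liver signal. The family count was 1 without DBA/2J replicate 1, BALB/cJ replicate 1 or BALB/cJ replicate 2.

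On the cysteamine side, 2 of 6 genes that turn cysteamine or cysteine into hypotaurine and taurine, or carry taurine, passed (33.3%). Fmo1, a flavin monooxygenase gene, was at 11.88 ± 0.09 in KK/HlJ and 10.98 ± 0.07 in the arrays labelled C57L/J (limma adjusted p = 7.57e-09). Cdo1, the cysteine dioxygenase gene, was at 9.89 ± 0.06 in 129S1/SvlmJ and 9.10 ± 0.16 in MRL/MpJ (limma adjusted p = 0.0159). The taurine carrier gene Slc6a6 spanned 0.44 and the decarboxylase gene Csad 0.32 (limma adjusted p = 0.0514 and 0.108). Without MRL/MpJ replicate 3, 1 of the 6 passed.

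Of the glutathione genes, 11 of 13 passed (84.6%), with a median range of 0.45; this share was not tested against that of all genes. Gclc, the catalytic subunit of the rate-limiting ligase, was at 9.93 ± 0.02 in C57BL/6J and 8.85 ± 0.11 in 129S1/SvlmJ (limma adjusted p = 1.87e-08). These strains had nearly equal vanin levels. A link between vanin levels and the glutathione genes was not tested. Slc7a11, the cystine importer gene, was at 5.59 ± 0.16 in the arrays labelled C57L/J and 4.40 ± 0.02 in C57BL/6J (limma adjusted p = 4.40e-06). Gpx3, a secreted glutathione peroxidase gene, was at 10.54 ± 0.07 in KK/HlJ and 9.68 ± 0.16 in DBA/2J (limma adjusted p = 1.44e-06). Ggt5, a gamma-glutamyl transferase gene, spanned 0.66 (limma adjusted p = 4.73e-05). Across the list the correlation with Vnn1 over the 9 strain means ran from -0.56 to 0.41.

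Of PPAR-alpha and its target genes, 7 of 20 passed (35%), a share near that of all genes. Acot1, an acyl-CoA thioesterase gene, was at 8.50 ± 0.04 in C57BL/6J and 7.45 ± 0.11 in C3H/HeJ (limma adjusted p = 1.56e-06). Acadl, a fatty acid oxidation gene, spanned 0.71 between the arrays labelled C57L/J and MRL/MpJ (limma adjusted p = 9.51e-04). Acaa2 spanned 0.66 and Cpt1a, the carnitine palmitoyltransferase gene, 0.27 (limma adjusted p = 0.00338 and 0.00824). None of these 4, named for their small F test p, was highest in DBA/2J or lowest in A/J, the ends of the vanin order. Correlations with Vnn1 over the strain means ran from -0.81 to 0.61 in the list. The part of PPAR-alpha in the vanin levels was not tested. Of the 80 different genes in these lists and the chromosome neighbours below, 0 passed in a class comparison.

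The 10 measured genes on each side of the pair on chromosome 10 were taken, and 7 of 20 passed the F test (35%). Of the 20, 16 had mean signals under 6, where a strain range may not be detectable, and 2 of the remaining 4 passed. Slc18b1, a vesicular amine transporter gene that ends 23.5 kb before Vnn3, spanned 0.26 (limma adjusted p = 0.114). On the other side, Taar1, of the trace amine receptor genes, begins 15.1 kb after Vnn1 and spanned 0.17; 0 of the 10 Taar genes passed, and all 10 had mean signals under 6. The passing genes lay before Vnn3. Tcf21, a mesenchymal transcription factor gene, was at 9.65 ± 0.08 in 129S1/SvlmJ and 8.31 ± 0.14 in MRL/MpJ (limma adjusted p = 0.00154). Its interval lies within that of Gm10824, which also passed, and which of the overlapping genes a signal comes from is uncertain. Slc2a12, a glucose transporter gene, ranged from 6.81 ± 0.09 in C3H/HeJ to 7.53 ± 0.19 in MRL/MpJ (limma adjusted p = 2.19e-04). Eya4 and H60b spanned 0.64 and 0.50 at low signal (limma adjusted p = 2.87e-04 and 0.00176). The highest correlation of a neighbour with Vnn3 over the strain means was 0.52, for Tcf21.

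**Figure D3:**
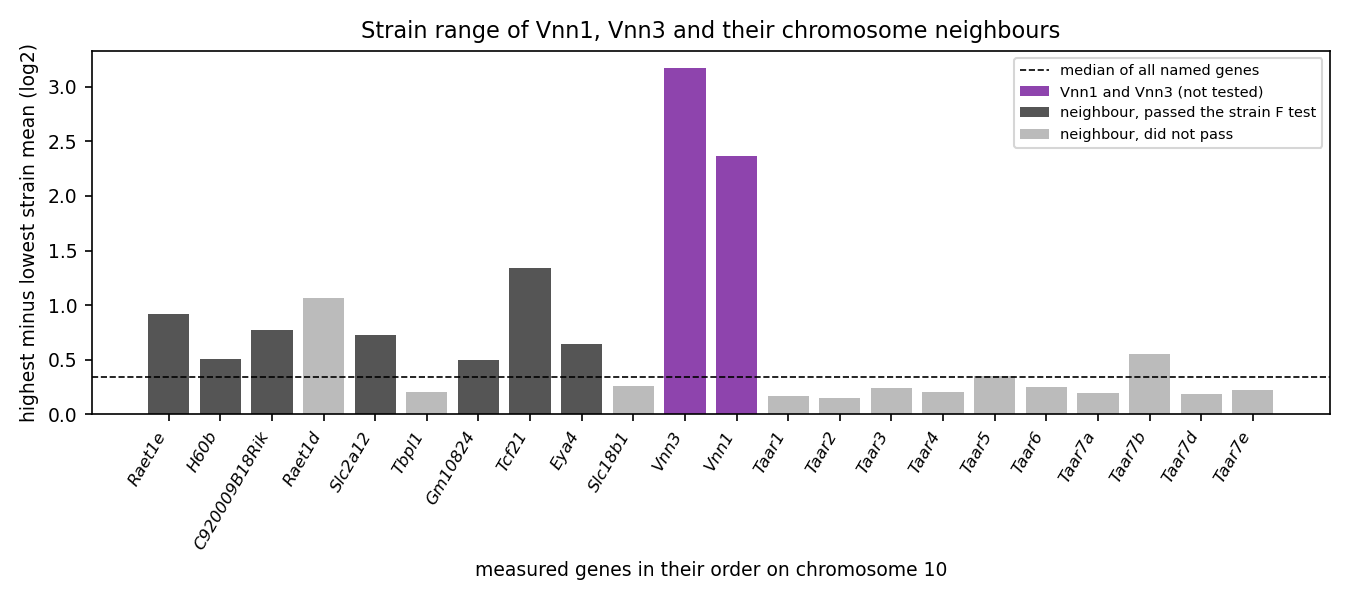
Difference between the highest and the lowest strain mean (log2) for Vnn3, Vnn1 and the 10 measured genes on each side, in chromosome order and not to scale in distance. Purple bars mark the vanins, dark bars neighbours that passed the strain F test and light bars those that did not; the dashed line is the median of all named genes (0.34). The vanins span 3.17 and 2.37, and the widest neighbour, Tcf21, 1.34.

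The genes with strain profiles most like the vanins were ranked by Pearson r over the 9 strain means, among the 944 genes with a range of at least 1. For each vanin the first was the other one. Pisd-ps1, a pseudogene of phosphatidylserine decarboxylase on chromosome 11, followed with r = 0.94 for either, from 8.06 ± 0.12 in MRL/MpJ to 9.56 ± 0.04 in DBA/2J. Rpl26, a large ribosomal subunit gene on chromosome 11, had r = 0.91 with Vnn1 and 0.93 with Vnn3, from 9.49 ± 0.17 in A/J to 10.70 ± 0.11 in DBA/2J. Both have near-identical copies in the genome, so their signals are uncertain. Mill2, an MHC class I-like gene on chromosome 7, was next for Vnn3 (r = 0.92) and reached 8.10 ± 0.05 in DBA/2J against 6.58 to 7.33 in the others. Samd5, which lies on chromosome 10 like the vanins, had r = 0.89 with Vnn1 and 0.86 with Vnn3, from 6.06 ± 0.06 in A/J to 7.95 ± 0.21 in DBA/2J. Chad, the chondroadherin gene, was the fifth for Vnn1 (r = 0.86) but peaked in C57BL/6J at 7.99 ± 0.08. These are descriptions over 9 points that share the same arrays.

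**Figure D4:**
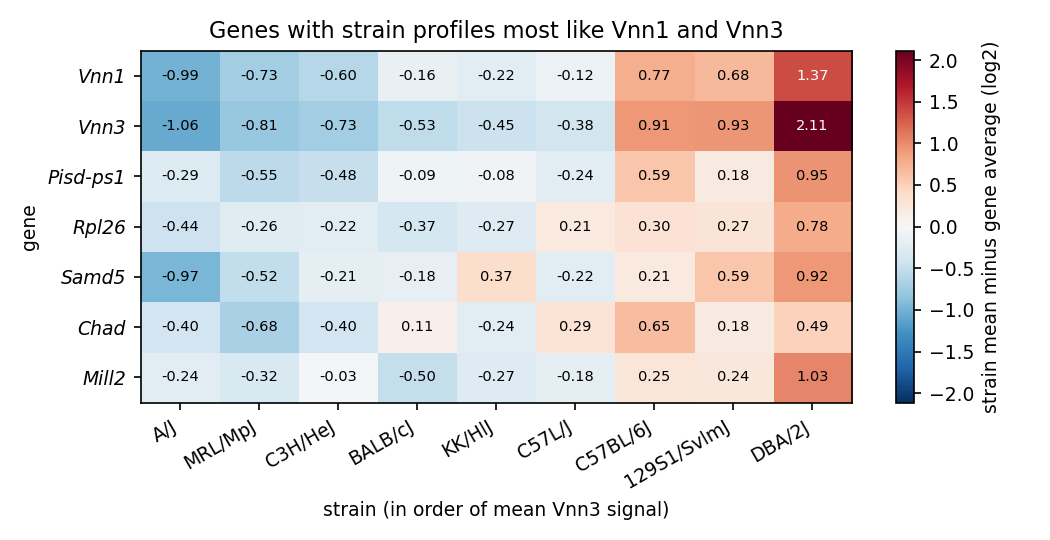
Strain means minus each gene's average over the 9 strains (log2, colour and printed values) for Vnn1, Vnn3 and the genes with the most similar strain profiles, with strains in order of mean Vnn3 signal. Except for Chad, highest in C57BL/6J, each gene shown is highest in DBA/2J, where Vnn3 stands 2.11 and Vnn1 1.37 above their averages.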

How the data were processed

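RNA of right lung from 27 mice was measured on 1 array each. The deposited table holds log2 signal for 21225 probe sets, read from its values (1.78 to 13.35); the affy package is named in the submitters' processing notes. How signals were normalized before deposit was not given in the sources used here. Values were used as deposited. The probe table named 20239 probe sets with 1 symbol each, and 986 without a symbol were left out. With 3 arrays in each strain, precision is limited by their number.

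R 4.3.3 with limma 3.58.1 (lmFit, eBayes) gave the strain F test over 27 arrays and the class comparisons over 9 strain means, with Benjamini-Hochberg adjustment over all named genes. Deviations within strains were correlated with scipy 1.17.1 (100000 resamples). The fits were tested on simulated data. The 4 list members with the smallest F test p, all chromosome neighbours and the 5 genes most like each member could be named. The members and lists were chosen with earlier results of these data known. Nothing in the labels says how the mice of a strain are related, so the F test sets strain differences against the spread between these mice. The class comparisons use the spread of strain means within classes, and the permutation test shuffles arrays within strains.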

Additional observations from a re-analysis of the deposited data

Results flagged for a closer look

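Vnn3 in 129S1/SvlmJ stood apart from the other 5 strains of decreased adenoma frequency. Its mean was 6.78, whereas the others lay between 5.04 and 5.47, and the gap to the nearest made up 0.755 of the range of the 6 strains. The flag level was 0.625, and the same strain and class in Vnn1 fell short of it at 0.567. Among the 4 strains increased in severity and decreased in frequency, Vnn3 in 129S1/SvlmJ reached 0.790, short of the level of 0.829. Chance alone flags about 1 in 20 groups, but that rate does not apply here, since Vnn3 was chosen by these strain signals and both ends of 3 groups were examined for each gene. In Vnn3 the 3 mice of 129S1/SvlmJ all lay above every other mouse of the class of decreased frequency.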

How the results depend on the processing

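The strain range of Vnn1 stayed between 2.29 and 2.49 and that of Vnn3 between 3.11 and 3.22 over the other scalings and the removal of each array. The 255 alternative values of the vanins in the class comparisons kept their direction and missed the threshold (lowest adjusted p = 0.319); Vnn3 has no value with probe sets of mean signal under 6 left out, since it falls under that level. The correlation within strains ranged from -0.52 to 0.22 when single arrays were left out, with the positive values 0.01, 0.22, 0.02 (KK/HlJ replicates 1, 2 and 3) and 0.07 (C3H/HeJ replicate 2), and was 0.18 without the 2 farthest arrays; it passed its test in none of these. With the replicate number as a block, which is only a shared number here (deviations of same-numbered arrays correlated between -0.27 and 0.28), 5815 genes passed the F test against 5840, and the lists gave 1, 2, 2, 11, 6 and 9 genes in the order of the text against 1, 2, 2, 11, 7 and 7. The coenzyme A count was 2 with quantile normalization, without dim probe sets, with an intensity trend, without the arrays labelled C57L/J and without both arrays with liver or muscle signal, 3 with median centring, and 1 to 3 without single arrays. The hydrolase family count was 1 to 2 and the cysteamine count 1 to 3 without single arrays. Without dim probe sets 2 chromosome neighbours passed, since only 4 were then tested. The number of all genes passing by class was 1 (severity) and 0 (both) without dim probe sets. With the strain as a random block it was 73 (severity), 16 (frequency) and 56 (both). With single strains left out it ranged from 2 to 53, 0 to 1 and 1 to 38, highest without MRL/MpJ for severity and both, where 1 listed gene passed for severity (0 to 1 over all strains). With single arrays left out it ranged from 1 to 3, 0 to 0 and 1 to 2. The cause was not tested.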
